A study of Mus musculus with 14 samples.

Results

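The genes described are 34 DNA replication and S phase genes: *Mcm2*, *Mcm3*, *Mcm4*, *Mcm5*, *Mcm6*, *Mcm7*, *Pcna*, *Tyms*, *Fen1*, *Rrm1*, *Rrm2*, *Ung*, *Gins2*, *Cdca7*, *Dtl*, *Prim1*, *Uhrf1*, *Hells*, *Rfc2*, *Rpa2*, *Nasp*, *Gmnn*, *Slbp*, *Cdc6*, *Cdc45*, *Pold3*, *Ccne1*, *Ccne2*, *Chaf1b*, *Usp1*, *Tipin*, *Wdr76*, *Clspn* and *Pola1*. The rule is a list of symbols and holds no threshold on a measured value. All 34 were found among the 19322 genes listed for E10 cells and the 19424 listed for E11 cells. The study sequenced single cells of the mouse embryonic aorta and yolk sac (YS) around the time when haematopoietic stem cells (HSCs) are produced, and whole intra-aortic haematopoietic clusters (wIAHCs) picked from slices of the aorta. Each sorted population at each stage was 1 sample of pooled embryos, except that type I and type II pre-HSCs were parts of 1 sample, told apart by the column names. Populations were therefore compared without a test. The intervals given for them are exact at 95% and cover counting error only.

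Non-haemogenic endothelial (non-HE) cells were sorted as Cdh5+ Gfi1- Gfi1b- c-kit-, haemogenic endothelial (HE) cells as Cdh5+ Gfi1+ Gfi1b- c-kit-, and cells in endothelial-to-haematopoietic transition (EHT) as Cdh5+ Gfi1+ Gfi1b- c-kit+. These 3 populations came from the aorta-gonad-mesonephros (AGM) region of embryos that ICR males of genotype Gfi+/tomato/ Gfi1b+/GFP sired with wild-type ICR females. In these males 1 allele of each locus carried a fluorescent reporter, and the genotype is given for them and not for each embryo. The embryos are called ICR reporter embryos below. Every other population was wild type (WT) and C57BL/6. These were intra-aortic haematopoietic cluster (IAHC) cells, sorted as c-kit+CD31+ at E10 and E11 and as c-kit+ at E11, type I and type II pre-HSCs of the E11 AGM (c-kit+ Cdh5+, told apart by CD45), c-kit+ haematopoietic stem and progenitor cells (HSPCs) of the YS, and c-kit+ wIAHCs. E10 embryos had 28 to 32 somite pairs and E11 embryos more than 40. The paper also purified its IAHC cells in silico, by *Gpr56* transcripts and by leaving out cells with transcripts of non-IAHC genes. On the deposited values that rule left 54 of 73 E10 and 140 of 201 E11 c-kit+CD31+ cells and 47 of 89 E11 c-kit+ cells. All were used here. The paper counts 73 purified E10 cells, so the deposited cells may already be selected. Strain, reporter genotype and sort gate changed together at the step from EHT to IAHC cells, as may selection by transcripts. Their parts in a difference across that step cannot be told apart. In the deposited table E10 non-HE cells carry names with early E11, although their sample is labelled E10, and the label was followed. E10 HE cells carry names with E10.5.

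DNA is copied once per cell cycle, in S phase. In G1 the MCM2-7 ring is loaded at origins, and at the start of S phase *Cdc45* and the GINS complex turn it into an active helicase. Polymerases follow, held to the template by the PCNA clamp and fed by ribonucleotide reductase and thymidylate synthase, while histone chaperones and the DNA methylation machinery rebuild chromatin behind the fork. Many of these genes are known E2F targets and are transcribed together from late G1 into S phase, whereas genes of G2 and mitosis are transcribed later, many of them through CCAAT and CHR promoter elements.

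The promoters are shown because the members share a phase of the cell cycle and were low or high together in several populations below. RefSeq promoter windows of GRCm38.p6, 300 bases from 250 before to 50 after the start site, were matched by symbol for 27 of the 34 members, and *Mcm4*, *Gins2*, *Gmnn*, *Rfc2*, *Tipin*, *Usp1* and *Ccne2* had no match. Both strands were searched for the E2F words TTTCCCGC, TTTCGCGC, TTTGCCGC and TTTGGCGC, and overlapping matches were counted. At least 1 word was present in 12 of the 27 genes (44.4%): *Mcm3*, *Mcm5*, *Mcm6*, *Mcm7*, *Cdc6*, *Pold3*, *Pola1*, *Clspn*, *Cdca7*, *Uhrf1*, *Hells* and *Dtl*. The words were present in 704 of all 27025 genes with a window (2.605%) and in 2.26% of all 32851 windows. A list of 50 other replication genes had them in 15 of its 41 matched genes, and a list of 35 G2 and mitosis genes in 1 of its 32. The CHR word TTTGAA was in 24 of those 32 G2 and mitosis genes but in 5 of the 27 members, against 20.2% of all genes. The word CCAAT was in 17 of the 27 members, against 41.1% of all genes. It was in 18 of the 41 other replication genes and in 26 of the 32 G2 and mitosis genes. The 250 bases before the start site follow for *Mcm5* and *Mcm6*, helicase genes with E2F words, and for *Pcna*, the most abundant member, and *Rrm2*, the member with the largest stage difference in HE cells, whose windows held no such word. Capitals mark the E2F and CCAAT words. A match describes letters and is not a mapped binding site.
Mcm5: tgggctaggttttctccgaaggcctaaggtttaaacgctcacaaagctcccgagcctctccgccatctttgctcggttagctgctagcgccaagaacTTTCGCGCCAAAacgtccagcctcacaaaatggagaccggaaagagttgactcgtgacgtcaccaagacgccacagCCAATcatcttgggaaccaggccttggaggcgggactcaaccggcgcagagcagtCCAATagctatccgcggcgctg
Mcm6: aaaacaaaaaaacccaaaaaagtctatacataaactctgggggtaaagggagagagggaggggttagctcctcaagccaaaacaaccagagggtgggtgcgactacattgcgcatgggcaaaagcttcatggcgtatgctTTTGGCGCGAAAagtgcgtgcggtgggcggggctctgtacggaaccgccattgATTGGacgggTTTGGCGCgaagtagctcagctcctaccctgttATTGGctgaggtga
Pcna: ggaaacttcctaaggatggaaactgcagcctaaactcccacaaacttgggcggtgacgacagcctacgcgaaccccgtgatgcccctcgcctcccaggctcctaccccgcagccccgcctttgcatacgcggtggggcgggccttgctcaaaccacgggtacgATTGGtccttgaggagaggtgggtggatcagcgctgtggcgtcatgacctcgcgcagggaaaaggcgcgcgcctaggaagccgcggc
Rrm2: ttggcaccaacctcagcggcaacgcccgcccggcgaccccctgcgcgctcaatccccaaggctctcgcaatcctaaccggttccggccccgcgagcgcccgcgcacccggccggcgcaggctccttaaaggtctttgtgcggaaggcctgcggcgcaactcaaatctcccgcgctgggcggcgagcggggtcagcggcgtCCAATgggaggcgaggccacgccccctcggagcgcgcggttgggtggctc
The *Mcm5* stretch is chr8:75109259-75109508 on the plus strand, where 2 overlapping E2F words run from position -153 to -142, counted from -1 at the base before the start site of the promoter table. The RefSeq gene record of *Mcm5* begins earlier, at 75109468, inside this stretch. The *Mcm6* stretch is chr1:128359706-128359955 on the minus strand, with overlapping E2F words from -110 to -99 and another from -47 to -40. The *Pcna* stretch is chr2:132253181-132253430 on the minus strand, and the *Rrm2* stretch is chr12:24708004-24708253 on the plus strand. *Mcm5* and *Mcm6* each held 2 CCAAT words in the stretch shown, and *Pcna* and *Rrm2* each held 1.

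There were 546 E10 cells at 3000 transcripts each and 575 E11 cells at 5000 each, with a median of 1811 genes detected per cell at E10 (1356 to 2011) and 2308 at E11 (1772 to 2656). The 12 endothelial markers made up 1.419% of transcripts in E10 non-HE cells and 1.02% in E11 non-HE cells, and 0.0364% and 0.0622% in YS HSPCs of the same stages. The 12 haematopoietic markers ran the other way, from 0.0101% and 0.00867% in the non-HE cells of E10 and E11 to 0.430% in E10 IAHC cells. These lists hold genes whose products or reporters were used for sorting (*Cdh5*, *Pecam1*, *Kit*, *Gfi1* and *Ptprc*) and *Gpr56*, used for the in silico purification. The sums are therefore partly set by the sorting and are no independent check of identity. The summed erythroid, macrophage and mesenchymal markers each lay between 0% and 0.111% of transcripts in every population. Macrophage markers were highest in E11 EHT cells, at 0.0878% with 9 of 11 detected, and 3 of the 46 cells held at least 4 of them. Without those 3 cells, a choice made after seeing the data, the member share of E11 EHT cells was 0.402% in place of 0.383%.

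The 34 genes together made up between 0.140% and 0.791% of the transcripts of a population, and endothelial cells had lower shares than the blood-forming cells of the same stage. At E10 the share was 0.264% in non-HE cells (95% interval 0.237 to 0.294, 43 cells), 0.503% in HE cells (0.478 to 0.530, 98 cells), 0.666% in EHT cells (0.645 to 0.687, 191 cells), 0.726% in IAHC cells (0.690 to 0.762, 73 cells) and 0.791% in YS HSPCs (0.765 to 0.819, 141 cells). The intervals of neighbouring E10 populations did not overlap in this order. At E11 the share was 0.239% in non-HE cells (0.215 to 0.265, 30 cells), 0.140% in HE cells (0.125 to 0.156, 46 cells) and 0.383% in EHT cells (0.358 to 0.409, 46 cells). Type I pre-HSCs were at 0.461% (0.437 to 0.485, 62 cells) and type II pre-HSCs at 0.542% (0.515 to 0.570, 55 cells). The c-kit+CD31+ and the c-kit+ IAHC cells were at 0.475% (0.462 to 0.489, 201 cells) and 0.484% (0.463 to 0.504, 89 cells), and their intervals overlapped each other and that of type I pre-HSCs. E11 YS HSPCs were at 0.581% (0.550 to 0.613, 46 cells). YS HSPCs therefore had the highest share at both stages, although at E11 their interval overlapped that of type II pre-HSCs, and the lowest share was in non-HE cells at E10 but in HE cells at E11.

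**Figure D1:**
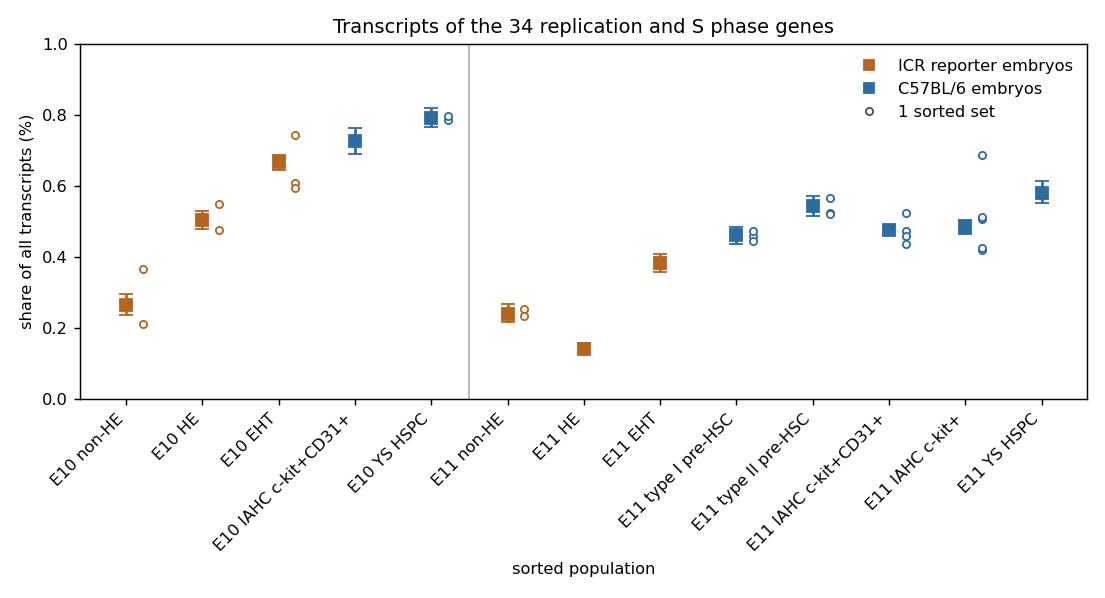
Share of all transcripts that came from the 34 genes (y axis, percent) in the 13 sorted populations (x axis). Squares are whole populations with exact 95% Poisson intervals, and open circles are single sorted sets where a population had several. The E10 values ran from 0.264% to 0.791%, and the lowest square is E11 HE at 0.140%.

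Sorted sets, as the column names number them, showed how far a population's value moved between sets. The names do not say whether sets were sorted separately, and in E10 EHT and E11 non-HE cells they differ in stage. The 2 sets of E10 non-HE cells were at 0.211% (28 cells) and 0.364% (15 cells), and both lay below the 2 sets of E10 HE cells, at 0.550% and 0.475%. The 3 sets of E10 EHT cells were at 0.607%, 0.593% and 0.743%, so the highest of them lay above the single E10 IAHC set at 0.726%. Those at 0.593% and 0.743% have names with late E10, and that at 0.607% does not. The 2 sets of E10 YS HSPCs were at 0.785% and 0.796%. In each of the 3 numbered sets of pre-HSCs, all parts of 1 sample, the type II share was above that of type I, at 0.522% and 0.458%, 0.566% and 0.472%, and 0.521% and 0.443%, although in the first and the third the intervals overlapped. At E11 the 2 non-HE sets were at 0.253% and 0.232%, and the 9 IAHC sets lay between 0.419% and 0.686%, the highest being a set of 7 cells. Of the non-HE sets, that at 0.232% has a name with late E11 and the other does not. The part of embryo age in the spread between sets was not tested. E11 HE, E11 EHT, E11 YS and E10 IAHC cells came from 1 set each, so no spread between sets can be given for them.

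The 10 genes of origin licensing and helicase activation (*Mcm2* to *Mcm7*, *Cdc6*, *Cdc45*, *Gins2* and the licensing inhibitor *Gmnn*) gave 31.4% of member transcripts in E10 non-HE cells and 46.4% in E11 c-kit+CD31+ IAHC cells, the lowest and highest of the 13 populations. *Mcm6* was the most abundant of them, with 1764 transcripts over all cells. At 3000 transcripts per cell, to which E11 cells were thinned for this purpose, *Mcm6* had 0.535, 0.867, 1.27, 1.88 and 1.72 transcripts per cell in E10 non-HE, HE, EHT, IAHC and YS cells. In E11 non-HE, HE and EHT cells it had 0.4, 0.370 and 0.739, in type I and type II pre-HSCs 1.26 and 1.38, and in c-kit+CD31+ IAHC, c-kit+ IAHC and YS cells 1.214, 0.820 and 1.28. *Mcm6* was thus lowest in the non-HE cells of both stages and in E11 HE cells, and highest in E10 IAHC and YS cells. E10 HE, E11 EHT and E11 c-kit+ IAHC cells had similar levels between these.

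The other ring subunits had the same low end. At the same depth *Mcm5* had 0.256, 0.704, 0.911, 1.14 and 1.567 transcripts per cell along the E10 populations in the same order, and *Mcm7* had 0.349, 0.786, 1.14, 1.77 and 1.99. In E11 HE cells *Mcm5* had 0.109, *Mcm7* 0.261, *Mcm3* 0.174, *Mcm2* 0.239 and *Mcm4* 0.174, the lowest value of each gene among the 13 populations. *Mcm4*, the least abundant subunit here, was flatter than the rest, between 0.571 and 0.740 in the E10 populations other than non-HE cells. *Cdc6*, which loads the ring onto origins, was the rarest gene of the group with 197 transcripts in all. At 3000 transcripts per cell it was found in 12.2% of E10 HE cells and 18.3% of E10 EHT cells, and in 0 of 46 E11 HE cells, where 3 counts, the limit a count of 0 allows, would be 6.52% of cells with a detected transcript and set no limit on cells that express the gene. At 5000 transcripts 1 of those 46 cells held it.

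**Figure D2:**
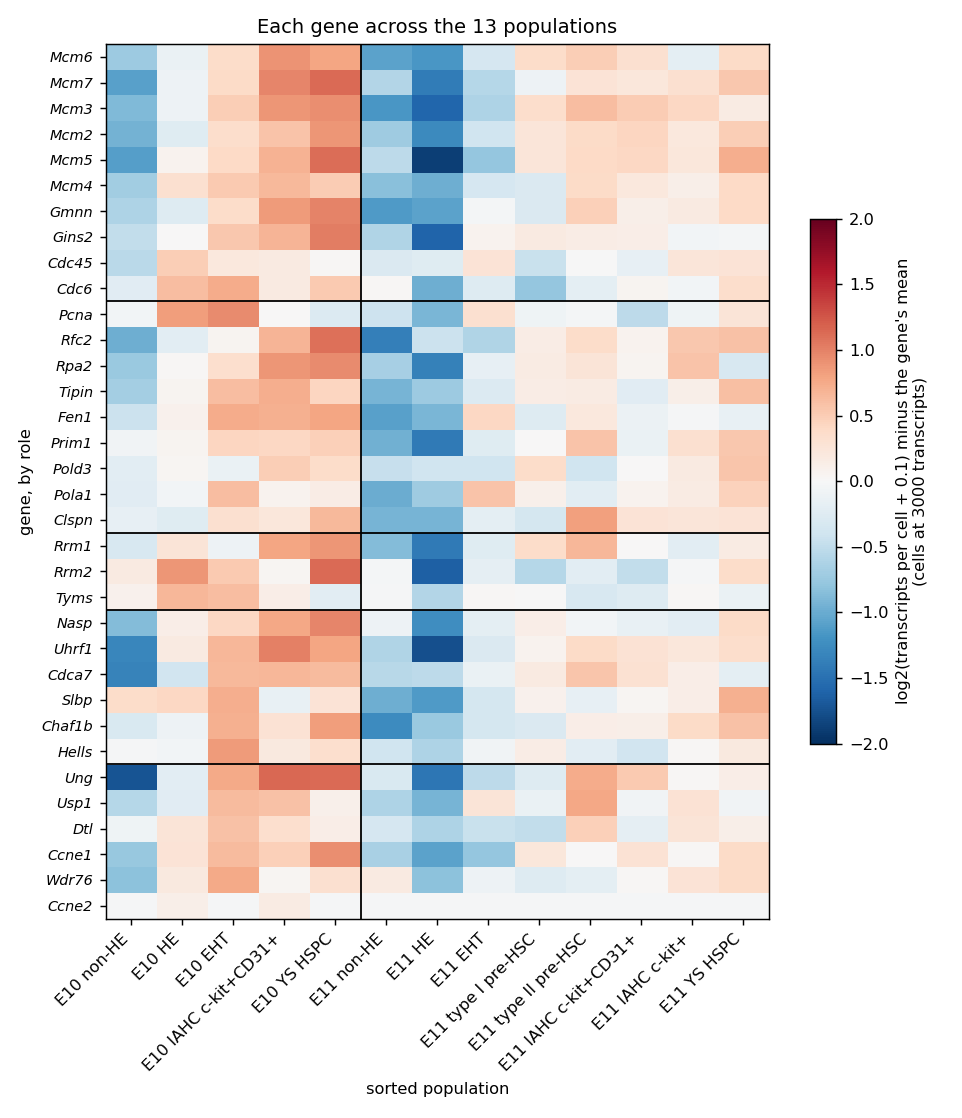
Each of the 34 genes (rows, grouped by role) in the 13 populations (columns), as the log2 of transcripts per cell plus 0.1 at 3000 transcripts per cell, minus the gene's mean over populations. Blue is below and red above that mean. The E11 HE column is blue for nearly every gene, with 21 of the 34 members at their lowest value there.

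At equal depth each of the 33 members other than *Ccne2*, which is too rare to place, had its lowest value in an endothelial population: 21 in E11 HE, 8 in E11 non-HE and 4 in E10 non-HE cells. Over all 5916 genes with at least the 136 transcripts of the rarest of the 33, 44.2% had their lowest value in a non-HE or HE population and 14.8% in E11 HE cells. *Clspn* was at 0 in E11 non-HE and E11 HE cells and was counted in E11 non-HE cells. *Wdr76* was at 0 in E10 non-HE and E11 HE cells and was counted in E10 non-HE cells. The highest value was in an E10 population for 29 members, with 14 in YS HSPCs, 6 in IAHC cells, 7 in EHT cells and 2 in HE cells. Of the same 5916 genes 66.8% were highest in an E10 population and 23.9% in E10 YS HSPCs, so most genes shared the E10 maximum. The E10 and E11 tables were normalised separately by the authors, to different depths, and a level set across them rests on thinning the E11 cells.

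*Pcna*, the sliding clamp, was the most abundant member with 1979 transcripts, and it did not follow the ring subunits. Its level at 3000 transcripts per cell was 1.19, 2.29, 2.47, 1.25 and 1.01 in E10 non-HE, HE, EHT, IAHC and YS cells, so the peak was in HE and EHT cells and not in IAHC or YS cells. At E11 it was 0.900, 0.609 and 1.565 in non-HE, HE and EHT cells, 1.16 and 1.2 in type I and type II pre-HSCs, and 0.831, 1.16 and 1.5 in c-kit+CD31+ IAHC, c-kit+ IAHC and YS cells. From EHT to c-kit+CD31+ IAHC cells the log2 ratio of *Pcna* was -0.99 at E10 (95% interval -1.33 to -0.66) and -0.95 at E11 (-1.25 to -0.64). Over the same steps the ratio of *Mcm7* was 0.64 (0.31 to 0.96) and 0.90 (0.45 to 1.391), so *Pcna* and *Mcm7* moved in opposite directions at both stages. Neither reached the 2-fold used here for a call, which compares means per cell after adding 0.1. The other ring subunits were also higher in IAHC than in EHT cells at both stages, although *Mcm4* was nearly flat at E10 (0.675 and 0.740 transcripts per cell in EHT and IAHC cells).

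As a share of member transcripts, *Pcna* held 12.4% to 15.1% in the 6 populations from ICR reporter embryos and 4.24% to 8.403% in the 7 from C57BL/6 embryos. *Mcm2* to *Mcm7* held 25.8% to 31.2% in the former and 34.9% to 40.3% in the latter. By sorted set there was 0.310 to 0.718 *Pcna* transcript per MCM transcript in ICR sets and 0.106 to 0.277 in C57BL/6 sets, with 1 exception, the set of 7 E11 c-kit+ cells at 0.468. The change in composition falls on the step from EHT to IAHC cells, where strain, reporter genotype, sort gate and perhaps selection by transcripts also change. These cannot be told apart. Within the pre-HSCs, from 1 strain, the second numbered set of type I and of type II cells had 0.277 and 0.267 *Pcna* transcript per MCM transcript, against 0.119 to 0.181 in the other 4 sets.

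**Figure D3:**
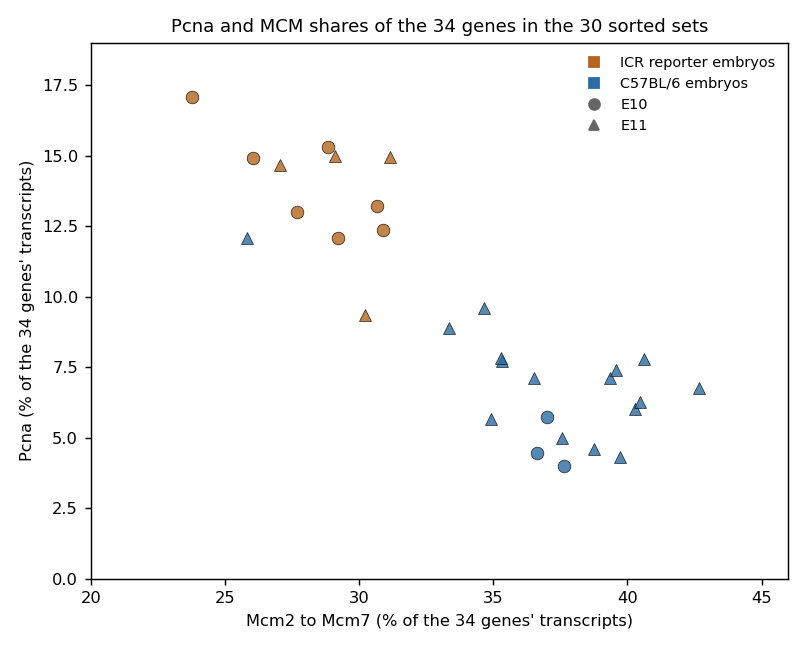
Share of the 34 genes' transcripts taken by *Pcna* (y axis, percent) against that taken by *Mcm2* to *Mcm7* (x axis, percent), with 1 point per sorted set (30 sets), circles for E10 and triangles for E11. ICR sets sit at high *Pcna* and low MCM shares and C57BL/6 sets at the reverse, except the set of 7 E11 c-kit+ cells (12.1% *Pcna*), and the *Pcna* shares also overlap at a set of 11 E11 non-HE cells (9.35%) and the second type I pre-HSC set (9.60%).

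The other fork genes were less abundant, from *Rfc2*, a subunit of the clamp loader, with 731 transcripts to *Pola1*, the catalytic subunit of the primase-coupled polymerase, with 173. *Rpa2*, a subunit of the protein that coats single-stranded DNA, had 0.388 transcripts per 3000 in E10 HE cells, 0.781 in E10 IAHC cells and 0.0870 in E11 HE cells. *Fen1*, the nuclease that trims Okazaki fragments, had 0.276, 0.479 and 0.0870 in the same populations. *Prim1*, a primase subunit, had 0.235, 0.329 and 0.0217. All 3 were at lower levels in E11 HE cells than in E10 HE cells. The E11 values rest on a few transcripts from 46 cells of 1 sorted set, fewest for *Prim1*. *Rfc2* differed little between HE cells of the stages, with 0.347 at E10 and 0.283 at E11, beside 0.726 in E10 IAHC cells.

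Of the genes of nucleotide supply, the large subunit of ribonucleotide reductase, *Rrm1*, and the small subunit, *Rrm2*, differed in pattern. *Rrm1* had 0.535, 0.847, 0.639, 1.26 and 1.355 transcripts per 3000 in E10 non-HE, HE, EHT, IAHC and YS cells, and 0.333, 0.196 and 0.565 in E11 non-HE, HE and EHT cells. *Rrm2* had 0.558, 0.969, 0.738, 0.493 and 1.18 in the same E10 populations and 0.467, 0.0870 and 0.413 in the E11 ones. From E10 EHT to IAHC cells *Rrm1* was higher, with a log2 ratio of 0.98 (0.57 to 1.38), while that of *Rrm2* was -0.58 (-1.15 to -0.05). *Tyms*, thymidylate synthase, was the rarest of the 3 with 549 transcripts and had its highest level in E10 HE cells, 0.602, and a lower one in E10 YS HSPCs, 0.284. The group gave 18.5% of member transcripts in E10 non-HE cells and 16.0% in E10 HE cells but 9.80% in E10 EHT cells and 9.82% in E10 IAHC cells.

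Among the chromatin genes the histone chaperone gene *Nasp* had the most transcripts (1292) and *Hells*, a chromatin remodeller that works with DNA methylation, the fewest (205). *Uhrf1*, which brings the maintenance methyltransferase to newly copied DNA, had 0.186, 0.704, 1.02, 1.32 and 1.121 transcripts per 3000 along the E10 populations and 0.367, 0.109 and 0.478 in E11 non-HE, HE and EHT cells. *Cdca7*, a partner of *Hells*, had 0.0930, 0.276, 0.665, 0.671 and 0.660 along the E10 populations, and 0.233, 0.239 and 0.348 in the first 3 E11 populations. *Uhrf1* was lowest in E11 HE cells, while *Cdca7* was lowest in E10 non-HE cells and had similar levels in HE cells of the 2 stages.

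The last group joins G1/S cyclins, replication-coupled turnover and repair. *Ung*, the uracil-DNA glycosylase, was its most abundant gene (462 transcripts) and was found in 0 of 43 E10 non-HE cells (by the same limit up to 6.98% with a detected transcript) but in 12.2% of HE, 30.4% of EHT, 43.8% of IAHC and 41.1% of YS cells at E10. *Ccne2*, a G1/S cyclin, had 3 transcripts over all the single cells and its pattern cannot be read. *Ccne1*, its paralogue, had 230, and at 3000 transcripts per cell it was found in 11.2% of E10 HE and 25.5% of E10 YS cells, and in 0 of 46 E11 HE cells (up to 6.52% with a detected transcript).

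Non-HE and HE cells, the endothelial populations without and with Gfi1 reporter signal, stood in opposite order at the 2 stages. At E10 the share of the 34 genes was 1.90-fold higher in HE than in non-HE cells (1.692 to 2.15), and at E11 it was 1.71-fold lower (1.471 to 2.00). By their names the E10 non-HE cells were early E11 and the E10 HE cells E10.5, and the part of age was not tested. Genes entered a comparison of levels when their mean over both populations was at least 0.2 transcripts per cell. Calls, counts above and below 0, and medians use the log2 ratio of means with 0.1 added, and single genes are given by the ratio of the means themselves with its exact interval. At E10 19 of the 34 members entered. The log2 ratio of all 19 was above 0, as it was for 52.9% of all genes. Their median was 0.72 against 0.04 over all 3536 genes compared. *Uhrf1*, *Mcm5* and *Mcm4* were at least 2-fold higher, where 2.21% of all genes were, and 0 members were at least 2-fold lower, where 3.56% of all genes were. *Uhrf1* had 0.186 transcripts per cell in non-HE and 0.704 in HE cells, a log2 ratio of 1.92 (0.86 to 3.19), and *Mcm5* had 0.256 and 0.704, a ratio of 1.46 (0.53 to 2.53). With 0.5 added in place of 0.1, 0 members passed 2-fold.

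At E11, with levels per 5000 transcripts, 15 members were compared. Of them 14 were lower in HE than in non-HE cells, where 48.5% of all genes were. The median log2 ratio was -0.71 against 0.02 over all genes. *Rrm2*, *Mcm5*, *Tyms* and *Mcm7* were at least 2-fold lower, where 3.53% of all genes were, and 0 members were 2-fold higher, where 4.12% of all genes were. *Rrm2* had 0.667 transcripts per cell in non-HE and 0.109 in HE cells, a log2 ratio of -2.62 (-4.39 to -1.16). *Mcm5* had 0.667 and 0.217, a ratio of -1.62 (-2.88 to -0.45). *Rfc2* alone was above 0, at 1.26, with an interval (-0.09 to 2.8498) that includes 0. The G2 and mitosis genes moved with the members: 5 of 19 compared were at least 2-fold higher in HE cells at E10, and 12 of 21 at least 2-fold lower at E11. A minimum mean of 0.1 in place of 0.2 gave 8 members at least 2-fold lower at E11, and adding 0.5 gave 0. E11 HE cells came from 1 sorted set, and how much of this is that set was not tested.

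From HE to EHT cells, the step at which c-kit appears on the surface, the share of the 34 genes rose 1.32-fold at E10 (1.25 to 1.41) and 2.74-fold at E11 (2.41 to 3.12). At E11 22 members were compared and 17 were at least 2-fold higher in EHT cells, where 5.19% of all genes were, and 0 were 2-fold lower, where 8.55% of all genes were. The median log2 ratio of the members was 1.2004 against -0.06 over all genes. The 5 largest ratios on the scale with 0.1 added belonged to *Rrm2*, *Rpa2*, *Prim1*, *Uhrf1* and *Fen1*. *Rrm2* rose from 0.109 to 0.652 transcripts per cell, a log2 ratio of 2.58 (1.205 to 4.31), and *Uhrf1* from 0.239 to 0.913, a ratio of 1.93 (0.95 to 3.04). *Prim1* rested on 2 transcripts in HE cells and 17 in EHT cells, a ratio of 3.09 with an interval of 1.01 to 6.25. *Pcna* rose from 1.04 to 2.80 transcripts per cell, a ratio of 1.43 (0.94 to 1.94). The count depended on depth and on the value added: 10 members passed with E11 cells thinned to 3000 transcripts, 7 with a minimum mean of 0.5, and 1 with 0.5 added.

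At E10 28 members were compared over the same step, 24 were above 0 and the median was 0.43 against 0.03 over all genes. *Cdca7* alone was at least 2-fold higher, where 2.6% of all genes were, and 0 members were 2-fold lower, where 5.98% of all genes were. *Cdca7* had 0.276 and 0.665 transcripts per cell in HE and EHT cells, a log2 ratio of 1.27 (0.66 to 1.93). *Ung*, *Hells*, *Usp1* and *Chaf1b* came next on the scale with 0.1 added, with plain ratios of 1.3103 (0.57 to 2.13), 1.41 (0.46 to 2.49), 1.16 (0.44 to 1.94) and 1.26 (0.34 to 2.30). *Usp1* is a deubiquitinase of replication-coupled repair and *Chaf1b* a subunit of the chaperone that places histones on new DNA. *Rrm1* and *Rrm2* pointed down, with ratios of -0.41 (-0.82 to 0.01) and -0.39 (an interval from -0.78 to just under 0). *Tyms* and *Cdc45* were the other 2 members below 0. With 0.5 added, or with a minimum mean of 0.5, 0 members passed 2-fold.

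From EHT to c-kit+CD31+ IAHC cells the share of the 34 genes was 1.09-fold higher at E10 (1.03 to 1.16) and 1.242-fold higher at E11 (1.16 to 1.34). At E10 0 of the 28 members compared were at least 2-fold higher, where 2.25% of all genes were, and 0 were 2-fold lower, where 4.58% of all genes were. At E11 *Mcm3* alone of 27 members was at least 2-fold higher, where 4.65% of all genes were, with 0.739 and 1.756 transcripts per 5000 and a log2 ratio of 1.25 (0.74 to 1.80). None of the 27 was at least 2-fold lower, where 8.82% of all genes were. On the scale with 0.1 added *Mcm5* and *Mcm7* were the next above 0, and their plain ratios were 1.08 (0.55 to 1.66) and 0.90 (0.45 to 1.391). *Cdc45*, which joins the ring in the active helicase, pointed the other way with *Pcna*, at -1.35 (-2.17 to -0.50). With E11 cells thinned to 3000 transcripts, 3 members passed. With 0.5 added 0 did. Type I pre-HSCs against EHT cells gave a like picture, with *Mcm3* alone of 27 members at least 2-fold higher, where 3.18% of all genes were, and *Cdc45* alone at least 2-fold lower, where 8.08% were. Type II pre-HSCs, which carry CD45 and belong to the same sample as type I cells, had 1.18-fold the share of type I pre-HSCs (1.09 to 1.27). *Ung* alone of 28 members was at least 2-fold higher in type II cells, where 1.06% of all genes were, with 0.258 and 0.764 transcripts per 5000 and a ratio of 1.565 (0.70 to 2.50). At 3000 transcripts per cell 0 members passed, and with a minimum mean of 0.1 2 did. None was 2-fold lower in type II cells, where 1.16% of all genes were.

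YS HSPCs had 1.09-fold the share of c-kit+CD31+ IAHC cells at E10 (1.03 to 1.16) and 1.222-fold at E11 (1.149 to 1.30). At E10 1 of 26 members compared was at least 2-fold higher in the YS, where 3.45% of all genes were, and 0 were 2-fold lower, where 4.89% of all genes were. This was *Rrm2*, with 0.493 and 1.18 transcripts per cell and a log2 ratio of 1.26 (0.73 to 1.82). At E11 *Rrm2* again had the largest ratio with 0.1 added, and its plain ratio was 1.06 (0.53 to 1.56), with 0.512 and 1.07 transcripts per 5000. The plain ratio of *Cdc45* was larger, 1.205 (0.32 to 2.05), with 0.179 and 0.413. There 0 of 30 members were at least 2-fold higher, where 1.65% of all genes were, and 0 were 2-fold lower, where 5.94% of all genes were. At E10 the call is lost with 0.5 added.

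Between the stages the share of the 34 genes was lower at E11 than at E10 in all 5 population pairs, by a margin that differed between populations. It was 3.61-fold lower in HE cells (3.19 to 4.08), 1.74-fold lower in EHT cells (1.617 to 1.87), 1.53-fold lower in c-kit+CD31+ IAHC cells (1.44 to 1.616), 1.36-fold lower in YS HSPCs (1.28 to 1.45) and 1.104-fold lower in non-HE cells, where the interval (0.950 to 1.28) includes 1. In this last pair the E10 cells carry names with early E11. In HE cells at equal depth 17 members were compared and all 17 were lower at E11, where 61.5% of all genes were. The median log2 ratio was -1.38 against -0.17 over all genes. At least 2-fold lower were 14 of them, where 4.81% of all genes were, and 0 were 2-fold higher, where 4.67% of all genes were. *Rrm2* had 0.969 transcripts per 3000 at E10 and 0.0870 at E11, a ratio of -3.48 (-5.38 to -2.08). *Mcm5* and *Uhrf1* each had 0.704 and 0.109, a ratio of -2.70 (-4.36 to -1.40). *Pcna* had 2.29 and 0.609, a ratio of -1.91 (-2.53 to -1.34), and *Rrm1* 0.847 and 0.196, a ratio of -2.11 (-3.29 to -1.12). *Tipin*, *Rfc2* and *Cdca7* were the 3 members compared that did not pass 2-fold. With 0.5 added 2 members passed, and with a minimum mean of 0.5 6 did.

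In EHT cells 24 members were compared, all 24 lower at E11, with a median of -0.71 against -0.25 over all genes, and *Ung*, *Mcm5*, *Mcm3* and *Slbp*, the histone mRNA binding protein gene, were at least 2-fold lower, where 3.56% of all genes were, and 0 were 2-fold higher, where 3.74% of all genes were. A minimum mean of 0.1 gave 7 and of 0.5 gave 2, and 0.5 added gave 0. In IAHC cells 23 of 24 were below 0, the median was -0.57 against -0.28 and 0 passed 2-fold, where 2.5% of all genes were 2-fold lower and 3.04% higher. In YS HSPCs 20 of 26 were below 0, the median was -0.47 against -0.34 and 3 passed (*Rpa2*, *Gins2* and *Ung*), where 8.15% of all genes were 2-fold lower and 3.68% higher. *Pcna* was an exception in these cells, with 1.01 transcripts per 3000 at E10 and 1.5 at E11, a ratio of 0.57 (0.14 to 1.00). In non-HE cells 8 of 13 were below 0, the median was -0.15 against -0.12 and 1 (*Slbp*) passed, where 5.46% of all genes were 2-fold lower and 3.83% higher. Of all genes compared, 70.0% were below 0 in EHT, 77.7% in IAHC, 75.1% in YS and 59.9% in non-HE cells. In YS HSPCs and non-HE cells the members' counts lie near these shares. The median over all genes was also below 0 in each of these pairs, so the members' counts and medians are to be read against all genes. Moving with the HE difference, the G2 and mitosis genes made up 0.424% of transcripts in E10 and 0.120% in E11 HE cells, the endothelial markers 1.08% and 1.242%, and the median cell had 1846.5 and 1724.5 genes detected at 3000 transcripts. The part of these in the result was not tested.

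Populations differed in how evenly the members were spread over cells. At 3000 transcripts per cell, every one of the 141 E10 YS HSPCs held at least 10 member transcripts, with a range of 10 to 44 and a variance of 1.83 times the mean. E10 HE cells had a range of 1 to 50 and a variance of 9.63 times the mean, and 55 of 98 (56.1%, 45.7 to 66.1) held at least 10. Of E10 non-HE cells 11 of 43 (25.6%, 13.5 to 41.2) did, of EHT cells 158 of 191 (82.7%, 76.6 to 87.8) and of IAHC cells 66 of 73 (90.4%, 81.2 to 96.1). At E11 4 of 46 HE cells (8.70%, 2.42 to 20.8) reached 10, and their median was 3. Of E11 non-HE cells 8 of 30 (26.7%) reached it, of EHT cells 20 of 46 (43.5%), of c-kit+CD31+ IAHC cells 152 of 201 (75.6%) and of YS HSPCs 42 of 46 (91.3%). The limit of 10 is a convenience chosen after seeing the data, and cells with 8 to 11 numbered 16 in E10 HE and 56 in E11 c-kit+CD31+ IAHC cells. E10 HE cells thus mixed cells with few and with many member transcripts, while nearly all E10 IAHC and YS cells had many.

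**Figure D4:**
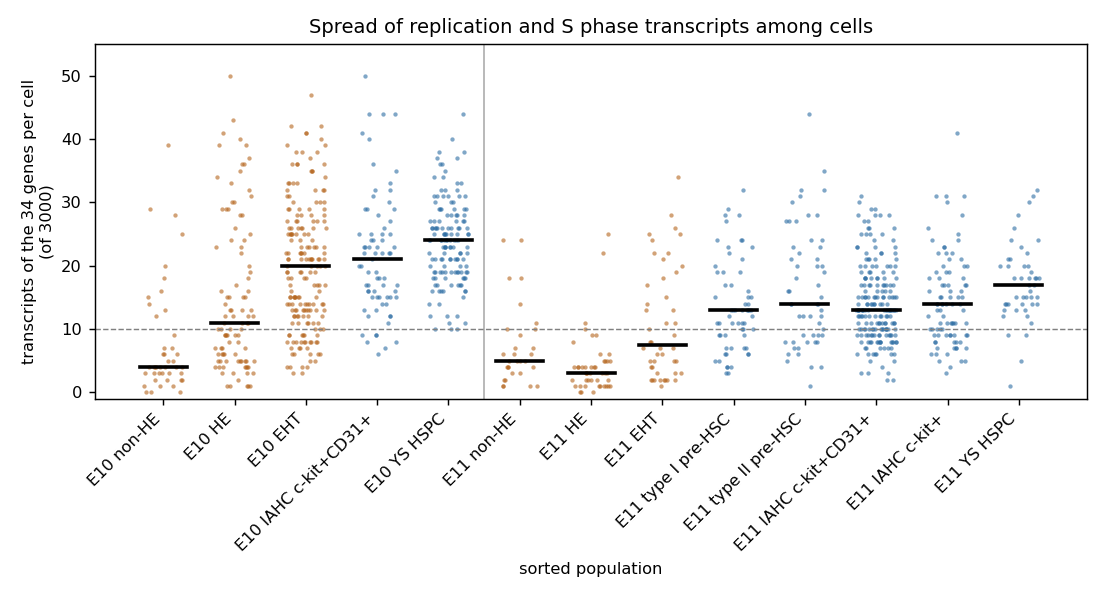
Transcripts of the 34 genes per cell at 3000 transcripts per cell (y axis) in the 13 populations (x axis), with 1 point per cell, bars at the median, a dashed line at 10, brown for ICR reporter embryos and blue for C57BL/6. All 141 E10 YS cells lie at or above 10, E10 HE cells run from 1 to 50, and the E11 HE median is 3.

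Cells with and without MCM transcripts were compared for the other members. In E10 HE cells the 59 cells with at least 3 MCM transcripts held on average 15.2 transcripts of the other 28 members, 3.27 of them from *Pcna*, and the 4 cells with none held 3 and 0. In E10 non-HE cells the figures were 13 and 2.714 in 14 cells with at least 3 and 2.36 and 0.429 in 14 cells with none. In E10 EHT cells the 163 cells with at least 3 held 15.0 and 2.69, and the 5 cells with none still held 9.2 and 1.6. Cells with none held more endothelial marker transcripts. They held 47.1 against 34.1 in non-HE, 39.5 against 30.5 in HE and 21.4 against 9.31 in EHT cells. Their G2 and mitosis transcripts were fewer in non-HE cells, 1.93 against 12.7, and in HE cells. In EHT cells these were more, 17.2 against 11.4. The part of these markers in the split was not tested. The median number of genes detected, in cells with at least 3 and with none, was 1790 and 1783.5 in non-HE cells. It was 1858 and 1828.5 in HE cells and 1845 and 1798 in EHT cells. No E10 IAHC or YS cell lacked MCM transcripts. At the same 3000 transcripts, 2 c-kit+CD31+ IAHC, 1 c-kit+ IAHC, 1 type I, 2 type II and 0 YS cells of E11 lacked them. So did 19 of 46 E11 HE, 9 of 46 E11 EHT and 8 of 30 E11 non-HE cells. The correlation across cells between the MCM sum and the other 28 members was r = 0.70 in E10 HE cells (98 cells), 0.71 in E10 non-HE cells (43), 0.54 in E10 EHT cells (191), 0.43 in E10 IAHC cells (73) and 0.26 in E10 YS HSPCs (141). At E11 it ran from 0.38 in YS HSPCs (46) to 0.78 in type II pre-HSCs (55). Between the sum of all members and the endothelial markers the correlation was negative in every population, from -0.41 in E10 non-HE cells to -0.08 in E10 YS HSPCs. Cells of a population share libraries and a fixed total, and these values describe them without a test.

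Against the G2 and mitosis list the MCM sum behaved differently by population. The correlation was -0.46 in E10 IAHC cells, -0.45 in E11 YS HSPCs, -0.40 in type II pre-HSCs and -0.28 in both E10 YS HSPCs and E11 c-kit+CD31+ IAHC cells. It was -0.18 in type I pre-HSCs and -0.14 in c-kit+ IAHC cells. It was 0.33 in E10 non-HE, 0.06 in E10 HE, 0.02 in E11 non-HE and 0.20 in E11 HE cells. In EHT cells it was -0.21 at E10 and 0.21 at E11, opposite in sign. The E10 HE and E11 non-HE values lie near 0, and none of these values was tested.

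The list of 50 other replication genes, origin recognition, polymerase and repair genes among them, gave the same order of populations in outline. Its share was 0.214%, 0.393%, 0.497%, 0.513% and 0.549% in E10 non-HE, HE, EHT, IAHC and YS cells. At E11 it was 0.222%, 0.156% and 0.320% in non-HE, HE and EHT cells, and 0.413% in YS HSPCs. From HE to EHT cells at E11 7 of 22 of its genes compared were at least 2-fold higher and 0 lower, and between HE cells of the 2 stages 8 of 13 were at least 2-fold lower at E11. The G2 and mitosis list also differed in these comparisons, with 6 of 21 genes at least 2-fold higher in E11 EHT than in HE cells and 14 of 18 at least 2-fold lower in E11 than in E10 HE cells. At E10, from HE to EHT cells, 0 of 23 G2 and mitosis genes passed 2-fold and their median was -0.06, beside 0.43 for the members.

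Whole clusters gave replicates, with each picked wIAHC taken as 1. Of 109 libraries, 57 with at least 5000 transcripts were used, 21 ventral and 7 dorsal at E10 and 17 ventral and 12 dorsal at E11, with 5099 to 115328 transcripts each. The members made up 0.363% to 0.755% of transcripts in E10 ventral clusters (median 0.578%), 0.325% to 0.649% in E10 dorsal (0.531%), 0.284% to 0.6996% in E11 ventral (0.485%) and 0.177% to 0.580% in E11 dorsal clusters (0.397%). The medians were lower at E11 than at E10 on both sides and the groups overlapped widely. In bulk clusters fewer cells of a type and less of a transcript per cell cannot be told apart. E11 dorsal libraries were also the shallowest, with a median of 8244 transcripts against 12838 to 14538 in the other groups, and had the most endothelial markers, a median of 0.232% against 0.0975% to 0.141%. The part of these in the result was not tested. The erythroid markers also differed between E10 and E11 clusters, with medians of 0.0152% in E10 ventral and 0.303% in E11 ventral clusters, and 0.0301% and 0.190% in dorsal ones. E11 libraries have names with iAHC or iAHC2, called the first and second collection set here, and the names do not say what separates them. Among the libraries used, those of the first set held 318 to 10085 transcripts of added control RNA (spike-ins) and those of the second at most 1.00. The erythroid medians were 0.0572% (ventral) and 0.0394% (dorsal) in the first E11 set and 0.338% and 0.437% in the second, so the higher E11 values lay mainly in the second set. In the second E11 collection set the lowest library was at 0.192% (ventral) and 0.206% (dorsal), above the highest E10 libraries at 0.0518% and 0.0541%. The median member share was 0.477% in the 4 ventral and 0.426% in the 6 dorsal clusters of the first E11 set, and 0.494% (13 clusters) and 0.279% (6 clusters) in the second. The mesenchymal markers also had higher medians at E11, 0.0275% against 0.00637% in ventral and 0.0429% against 0.00174% in dorsal clusters, with overlapping ranges. The part of the erythroid and mesenchymal markers and of the collection set in the stage difference was not tested. The erythroid markers reached 23.8% and 27.7% of transcripts in single E11 ventral and dorsal libraries, and without them in the denominator, a choice made after seeing the data, the medians were 0.495% and 0.397%.

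**Figure D5:**
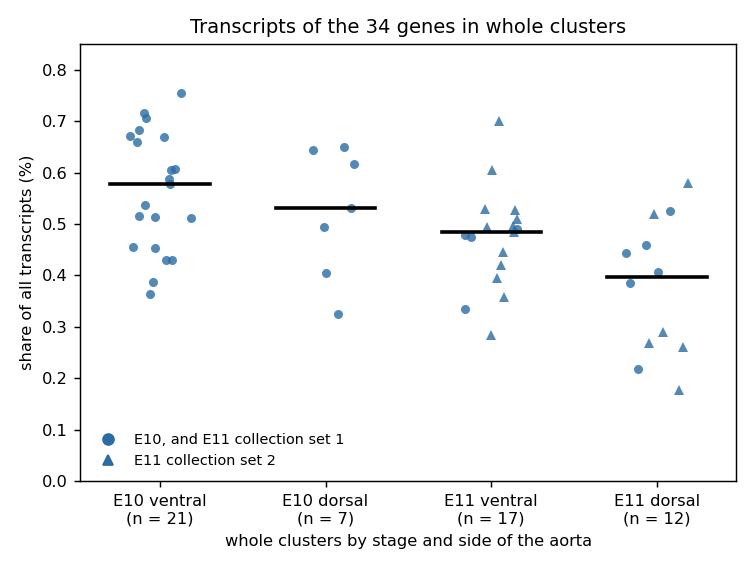
Share of all transcripts from the 34 genes (y axis, percent) in whole clusters by stage and side of the aorta (x axis), with 1 point per library, bars at the median, and triangles for the second E11 collection set. Medians go from 0.578% in E10 ventral to 0.397% in E11 dorsal clusters, and all 4 groups overlap.

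No member could be called in these libraries. With edgeR's default filter 260 genes and 0 members were tested. Of the 260, 18.1% (47) were higher and 13.1% (34) lower at E11 in ventral clusters, and 7.31% (19) and 1.92% (5) in dorsal clusters. With total-count scaling the balance turned, to 30 higher and 56 lower in ventral and 16 and 24 in dorsal clusters. Since 0 members were tested, a lower filter was fitted, a mean of at least 1 transcript per library chosen after seeing the data. It tested 4416 genes and 32 members (all but *Ccne2* and *Wdr76*). By edgeR's quasi-likelihood test with Benjamini-Hochberg adjustment over all genes, 0 of the 32 passed 0.05 between stages in ventral clusters, where 2.2% of all genes were lower and 2.99% higher at E11, or in dorsal clusters, where 1.4% were lower and 0.498% higher. At an unadjusted p under 0.05 there were 4 and 8 members. Between the sides 0 members passed at E10, where 0.0906% of all genes were lower and 0.0% higher in ventral clusters, or at E11, where 0.0% were lower or higher, with 1 and 4 members at an unadjusted p under 0.05. The test of the difference between the stage effects of the 2 sides also called 0 members, where 0.0453% of all genes were called higher, with 2 at an unadjusted p under 0.05. DESeq2, run with the default filter, tested 0 members.

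In direction, 27 of the 32 members were lower at E11 in ventral clusters, with a median log2 change of -0.31 against -0.12 over all genes, and 26 of 32 in dorsal clusters, with -0.59 against -0.29. Of 38 other replication genes 20 were lower in ventral clusters (median -0.15) and 31 in dorsal ones (-0.65). Of 33 G2 and mitosis genes 16 were lower in ventral clusters (0.01) and 14 in dorsal ones (0.11). In each of these 2 lists 1 gene was called higher in ventral and 1 lower in dorsal clusters. *Mcm7* had the smallest adjusted p of any member, 0.0706 by edgeR for the dorsal stage difference, with a log2 change of -1.33 ± 0.42 (SE). It had 471 to 766 CPM (counts scaled to the library total) in the 7 E10 dorsal clusters (median 645) and 0 to 656 in the 12 E11 dorsal clusters (median 188), so the ranges overlap, and 3 of the 12 E11 clusters had no *Mcm7* transcript. With E11 clusters of the first collection set only its change was -1.11 (adjusted p 0.258 by edgeR), and with the second only -1.68 (0.145). *Mcm6* had 52.3 to 860 CPM in E10 dorsal and 0 to 595 in E11 dorsal clusters, and its change was -0.91 ± 0.44 (edgeR adjusted p 0.325). *Pcna* had 109 to 732 and 0 to 992 in the same groups, and its change was -0.53 ± 0.41 (edgeR adjusted p 0.615). At E11 28 of the 32 members were higher in ventral than in dorsal clusters, with a median of 0.49 against 0.26 over all genes, and at E10 24 of 32, with 0.17 against 0.06.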

How the data were processed

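Single cells and whole clusters were sequenced by CEL-Seq, which tags each transcript at its 3′ end with a molecular identifier, so levels need no scaling by length. The authors mapped reads with BWA 0.6.2-r126 to mm10 (submitters' processing notes), corrected identifier counts for collisions and down-sampled cells to 3000 (E10) or 5000 (E11) transcripts, discarding shallower ones. The deposited single-cell values are these estimated counts plus 0.1, which was subtracted, and the deposited wIAHC values are collision-corrected estimated counts, rounded for testing. The 90 spike-in rows were left out, and they stayed out of library sizes.

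Genes, 34 in the list, were summed per population, with exact 95% Poisson or Clopper-Pearson intervals. Levels were compared as log2 ratios of means, called past 2-fold after adding 0.1. E11 cells were thinned to 3000 for comparison with E10. wIAHC libraries of at least 5000 transcripts were tested with edgeR 4.0.16 (R 4.3.3, TMM, quasi-likelihood, 4 groups of stage and side, Benjamini-Hochberg over all genes, threshold 0.05), with DESeq2 1.42.0 as an alternative. Nothing in the sources used here says which clusters shared an embryo, so p-values measure the spread between clusters. Scripts were tested on simulated data. Genes named are the 6 Mcm genes, the most and least abundant member of each role, the 5 largest ratios in 4 steps (E11 against E10 HE, HE to EHT at both stages, E11 EHT to IAHC) and any member past the wIAHC threshold. *Rfc2*, *Tipin*, *Slbp*, *Gins2* and *Ccne1* were named after their values were seen. The members and lists were chosen with earlier results of these data known, although the rule itself names symbols only.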

Additional observations from a re-analysis of the deposited data

Results flagged for a closer look

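The difference between HE and non-HE cells in the share of the 34 genes had opposite directions at the 2 stages, with 1 sample per population. The ratio of the share in HE cells to that in non-HE cells was 1.90 at E10 and 0.583 at E11. The E10 non-HE cells carry names with early E11 and the E10 HE cells names with E10.5, so age may differ within the E10 comparison. The part of age was not tested. The difference between the stages was not tested, since no population had replicate samples. Of the wIAHC groups, only the 7 E10 dorsal clusters were few enough for an outlier test of the member share, and none of the 7 stood apart by it.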

How the results depend on the processing

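Without *Pcna* the shares were 0.225%, 0.427%, 0.583%, 0.684% and 0.758% in E10 non-HE, HE, EHT, IAHC and YS cells, and 0.209%, 0.119%, 0.327%, 0.422%, 0.505%, 0.446%, 0.446% and 0.540% in E11 non-HE, HE, EHT, type I, type II, c-kit+CD31+, c-kit+ and YS cells. As medians over cells they were 0.133% and 0.367% in E10 non-HE and HE cells, and 0.160%, 0.0900%, 0.270%, 0.410%, 0.440% and 0.440% in E11 non-HE, HE, EHT, type I, c-kit+CD31+ and c-kit+ cells. Leaving out 1 sorted set in turn gave 0.211% to 0.364% in E10 non-HE, 0.475% to 0.550% in E10 HE, 0.602% to 0.695% in E10 EHT, 0.455% to 0.489% in c-kit+CD31+ and 0.466% to 0.506% in c-kit+ IAHC cells, so the E10 non-HE value rests on which set is kept. With only the IAHC cells left by the purification rule, the shares were 0.761% in E10 c-kit+CD31+, 0.481% in E11 c-kit+CD31+ and 0.487% in c-kit+ cells. The order of HE and non-HE cells was as reported under each of these settings.

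Counts of members past 2-fold fell with 0.5 added in place of 0.1. They became 0 for HE against non-HE cells at both stages, EHT against HE cells at E10, IAHC, type I and type II cells at E11, YS against IAHC cells at E10, and E11 against E10 in non-HE, EHT and YS cells. They became 1 for E11 EHT against HE cells and 2 for E11 against E10 HE cells. A minimum mean of 0.5 gave 0 for HE against non-HE cells at both stages, for E10 EHT against HE cells and for E11 against E10 non-HE cells, 7 for E11 EHT against HE cells, and 6, 2 and 1 for E11 against E10 in HE, EHT and YS cells. A minimum of 0.1 gave 8 for E11 HE against non-HE, 2 for type II against type I, and 7 for E11 against E10 EHT cells. Thinning E11 cells gave 10, 3 and 0 for EHT against HE, IAHC against EHT and type II against type I cells.

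In wIAHCs 0 members passed the threshold under each setting tried. With the default filter 0 members were tested in libraries of at least 5000 or at least 2000 transcripts, and 4 in libraries of at least 10000. Those settings therefore could not call the other members, whereas the fit with no filter tested 34. The number of genes past it was 81 for the ventral stage difference by edgeR, and 310 with no filter, 132 in libraries of at least 10000 transcripts, 229 with the lower filter. With the lower filter and only the first or only the second E11 collection set it was 150 and 229, so at that filter the first set gave fewer and the second as many. For the dorsal stage difference it was 24, and 40 with total-count scaling, 107 with no filter, 3 in libraries of at least 10000 and 84 with the lower filter, which became 66 with the lower filter and the first set and 25 with the lower filter and the second. Between sides at E10 it was 0 (20 at an unadjusted p under 0.05, and 0 by DESeq2), and 8 with no filter, 4 with the lower filter, which became 26 and 17 with the lower filter and the first or second set. Between sides at E11 it was 0 (23 unadjusted, 0 by DESeq2), 12 with no filter, 0 with the lower filter, and 9 with the lower filter and the first set. For the interaction it was 0 (26 unadjusted, 0 by DESeq2), and 21 with no filter, 2 with the lower filter, and 26 with the lower filter and the first set. The cause of these differences was not tested. The adjusted p of *Mcm7* in dorsal clusters ran from 0.0706 to 0.298 by edgeR. Other alternatives moved no value past its stated spread. No paired analysis was possible because replicate numbers of wIAHCs only name libraries and sorted populations had 1 sample each, or shared 1 in the case of the pre-HSCs, whose numbered sets are parts of that sample and not replicates. Depth limits the rarest members, since *Ccne2* had 3 transcripts in all cells.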
